A study of Mus musculus with 16 samples.

Results

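Retinas of mice without Nxnl1 were compared with wild-type retinas at 50 lux, which is also the light level of the cages in which they grew up. Of the 16 arrays of the series 5 belonged to the comparison, chosen by the genotype and light dose in their labels: 3 arrays of Nxnl1-/- retina (knockout) and 2 of Nxnl1+/+ retina (wild type). The question was what the retina looks like without this gene before any bright light. All mice were BALB/c, an albino strain, and were 11 to 16 weeks old. They are described as males and females in equal proportion, which did not hold on each array (see the sex-linked transcripts below). All 5 had the handling of a light experiment as well: dark adaptation for 16 h, 1 h under white fluorescent lamps, here at 50 lux, and 24 h of dark recovery before the eyes were taken. The other 11 arrays came from the same genotypes after 2500 lux (3 knockout, 3 wild type) or 5000 lux (2 knockout, 3 wild type). RNA of neural retina, dissected away from the retinal pigment epithelium, was measured on Affymetrix arrays, and the deposited values are intensities on a linear scale, used here as log2. The labels call the samples biological replicates and do not say whether 1 array held 1 animal or a pool, on which the sex-linked transcripts bear. Nor do they say what part of Nxnl1 the knockout lacks. The p-values therefore measure the spread between these arrays.

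The product of Nxnl1 is RdCVF, named for its release by rods and its effect on cone viability. It has the thioredoxin fold and occurs as a longer form that resembles an active thioredoxin and a truncated form that rods secrete. The truncated form is known to help cones survive, through the surface protein basigin and its partner, the glucose transporter GLUT1. Nxnl2 is the second gene of the family. Injured or stressed photoreceptors are known to release endothelin 2, and Müller glia, the radial support cells of the retina, answer injury with a reactive gene program.

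The comparison was made in limma, with all 16 arrays and their 6 group means in one fit, and a probe set was called where the Benjamini-Hochberg adjusted p over all 23320 probe sets tested was under 0.05. At 50 lux 48 probe sets were higher in knockout retina (0.206% of those tested) and 28 were lower (0.12%), so 0.326% were called in all. At an unadjusted p under 0.05 there were 3396 (14.6%). With the brightest probe set standing for each of 10916 genes, 32 genes were called higher (0.293%) and 12 lower (0.11%). All 76 called probe sets had groups that did not overlap, which means that every array of 1 genotype lay above every array of the other. That alone was common, and held for 33.8% of the probe sets tested: 29.1% of genes were higher and 7.3% lower by it. The median gene differed by 0.12 on the log2 scale, and 72.2% of genes had an estimate above 0, so a small positive difference was the background of every list below. The calls leaned on single arrays of these small groups. They numbered 9 without wild-type replicate 2, 36 without wild-type replicate 1, 24, 363 and 53 without knockout replicates 1, 2 and 3, and 1 (Nxnl1) with only the 5 arrays in the fit. Of the 35 named called genes 11 stayed called without knockout replicate 1, 35 without knockout replicate 2, 22 without knockout replicate 3, 13 without wild-type replicate 1 and 5 without wild-type replicate 2. Without wild-type 5000 lux replicate 2, an array outside the comparison that stands apart for its crystallin signal, there were 46.

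Some facts of the arrays bear on all that follows. Knockout replicate 1 stood apart on the second principal component (42.2, against -28.1 to 3.06 on the other 4 arrays), and its correlation with the others was 0.957 to 0.981, where the rest correlated at 0.979 to 0.990. The female transcript Xist was bright on all 5 arrays (log2 10.03 to 12.20). Y-linked transcripts were at background on wild-type replicate 1, where Eif2s3y had a log2 level of 2.21, against 9.85 on wild-type replicate 2 and 7.59 to 8.31 on the knockout arrays. Males and females were thus not in equal proportion on each array, and the balance differed between the wild-type arrays. On wild-type replicate 2 and the knockout arrays Xist and Eif2s3y were both bright, so each held RNA of both sexes and of more than 1 animal. With the Xist level minus the Y-linked level of each array as a covariate 37 probe sets were called.

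The targeted gene was measured first. Nxnl1, on chromosome 8, had log2 levels of 7.61 and 7.53 on the wild-type arrays and of 2.24 on all 3 knockout arrays. The knockout values lay near the lowest value of the files and the groups were far apart, at least 11.9-fold (limma, adjusted p = 4.4e-06), whichever of the 5 arrays was left out (adjusted p up to 0.00036). The second Nxnl1 probe set did not exceed 3.34 on any array and was not tested. Nxnl2, its relative on chromosome 13, had log2 levels of 11.52 and 11.46 in wild type and of 10.91, 10.82 and 10.88 in knockout. All 3 knockout arrays were lower, by a log2 difference of -0.62 (SE 0.12, adjusted p = 0.044). This call was lost without 4 of the 5 arrays, with an adjusted p of up to 0.34, without wild-type replicate 2. The second Nxnl2 probe set read 8.60 and 8.27 in wild type and 7.27, 7.31 and 7.99 in knockout. After bright light the Nxnl2 difference was -0.17 at 2500 lux and 0.24 at 5000 lux.

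Of 10 measured genes of the RdCVF family and its partners, 2 were called lower, against 0.11% of all genes, and none was higher. The 2 were Nxnl1, the targeted gene itself, and Nxnl2. The Nxnl2 call was lost in most fits that left out an array of the comparison, as given above. The count therefore says little about the family beyond the targeted gene. The receptor gene Bsg, for basigin, had log2 levels of 11.89 and 11.93 in wild type and 11.80, 11.71 and 11.63 in knockout (difference -0.20, SE 0.21, adjusted p = 0.66). For Slc2a1, which encodes GLUT1, they were 12.08 and 12.25 against 12.34, 12.14 and 12.13, with a difference of 0.04 (SE 0.13). Bsg was lower on every knockout array without passing the test, and the Slc2a1 groups overlapped. Mapt, which encodes the tau protein, differed by 0.26 (SE 0.25), and Otx2, a homeobox factor of photoreceptors, by -0.24 (SE 0.11, adjusted p = 0.32). The thioredoxin reductase gene Txnrd1 differed by 0.30 (SE 0.16, adjusted p = 0.39). Bsg, Slc2a1 and Mapt fell outside the rule for named genes and were chosen for their role with values known.

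The largest rises were in a secreted peptide, a transcription factor and a gene that overlaps a growth factor. Edn2, which encodes endothelin 2, had log2 levels of 3.57 and 3.89 in wild type, at background, and of 6.83, 7.35 and 8.36 in knockout. Its rise was at least 11.4-fold (adjusted p = 0.0002). The gene Cebpd, for a transcription factor of the acute-phase response, read 5.88 and 5.02 in wild type and 7.83, 7.58 and 8.02 in knockout, a 5.12-fold rise (log2 2.36, SE 0.23, adjusted p = 0.00058). Both wild-type arrays were well below all 3 knockout arrays for each gene, although wild-type Cebpd varied by more than the knockout did. Groups that did not overlap were a condition for naming these and the other rises and falls. Nudt6, which encodes a nudix hydrolase, rose from 6.46 and 6.36 to 8.50, 8.87 and 8.77 (log2 2.30, SE 0.14, 4.93-fold, adjusted p = 6.4e-06). These were among the 5 of 35 named called genes that stayed called whichever of the 5 arrays was left out; the remaining genes were Nxnl1 and Sox30 (adjusted p up to 0.0074 for Edn2, 0.0089 for Cebpd, 0.00058 for Nudt6 and 0.0088 for Sox30).

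Nudt6 needs a caution. Its span on chromosome 3 overlaps that of Fgf2, a growth factor of the retina, in the RefSeq annotation. The Fgf2 probe set lay at 2.25 to 2.36 on all 5 arrays, and another Nudt6 probe set read 4.38 and 3.63 in wild type and 3.98, 4.42 and 4.71 in knockout, where the groups overlap. The rise therefore rests on 1 of 2 Nudt6 probe sets, and which transcript it reads was not tested.

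Several other regulators and signals rose. Sox30, an HMG-box transcription factor known from the testis, read 5.94 and 6.33 in wild type and 7.39, 7.60 and 7.72 in knockout (2.72-fold, log2 1.44, SE 0.14, adjusted p = 0.0004). Ahrr, the repressor of the aryl hydrocarbon receptor, read 7.13 and 6.65 against 7.87, 7.79 and 8.45 (log2 1.15, SE 0.20, adjusted p = 0.037). Betacellulin (Btc), a ligand of the epidermal growth factor receptor, read 5.31 and 5.14 against 6.53, 6.23 and 6.67 (2.39-fold, adjusted p = 0.0052), and its other probe set differed by 0.86 on the log2 scale (adjusted p = 0.21). In all 3 genes the lowest knockout array was above the highest wild-type array, which the rule for naming a rise required. The Ahrr call was lost without 4 of the 5 arrays (adjusted p up to 0.47, without wild-type replicate 2), and the Btc call without 1 (adjusted p = 0.14, wild-type replicate 2).

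Further rises were in S100a6, Antxr2, Krt18, Tagln2 and Arhgap15. S100a6, a calcium-binding protein, read 5.16 and 4.23 in wild type and 7.13, 6.15 and 6.43 in knockout (3.67-fold, SE of the log2 difference 0.31, adjusted p = 0.029). Antxr2, a receptor for extracellular matrix and anthrax toxin, read 7.29 and 6.83 against 8.37, 8.56 and 8.51 (2.67-fold, adjusted p = 0.0031). Krt18, a keratin of simple epithelia, was bright in both groups, at 10.02 and 9.94 against 11.28, 10.92 and 10.92 (2.08-fold, adjusted p = 0.037). The knockout arrays were close to each other for Antxr2, while knockout replicate 1 was the highest array for S100a6 and Krt18. The actin-binding gene Tagln2 was at least 2.19-fold higher (adjusted p = 0.048), and a second Tagln2 probe set, also with a wild-type mean below log2 4, at least 2.89-fold (adjusted p = 0.0048). Arhgap15, which switches off the GTPase Rac, rose 2.61-fold on its brightest probe set, from a wild-type level at the floor (adjusted p = 0.042), while its other probe set read 4.41 and 4.25 against 4.83, 4.45 and 4.16 and overlapped between groups (adjusted p = 0.81). Without wild-type replicate 2 the adjusted p was 0.39 for S100a6, 0.083 for Antxr2, 0.35 for Krt18, 0.32 for Tagln2 and 0.37 for Arhgap15.

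The remaining rises were in genes of varied function. Gckr, which inhibits glucokinase, read 8.04 and 7.78 in wild type and 9.30, 9.36 and 9.54 in knockout (2.81-fold, adjusted p = 0.029). Rdh9, a retinol dehydrogenase, read 5.98 and 6.02 against 7.52, 7.12 and 7.33 (2.50-fold, adjusted p = 0.0042), and the secreted ribonuclease gene Rnase4 read 4.87 and 4.09 against 6.31, 6.10 and 5.66 (2.92-fold, adjusted p = 0.013). The groups were apart for all 3 genes, as the rule for naming a rise required, and wild-type replicate 2 was the lowest array for Gckr and Rnase4. Lyz1, a lysozyme, rose 2.98-fold (adjusted p = 0.045). The leucine-rich repeat gene Lrrc2 rose 2.29-fold (adjusted p = 0.0057) and 2.86-fold on its second probe set, whose call stayed without any 1 of the 5 arrays (adjusted p up to 0.0053), while the first lost its call without either wild-type array (adjusted p up to 0.12). Zfp469, a zinc finger gene, was at least 1.58-fold higher, Donson, a replication fork gene, 2.24-fold and the uncharacterised 6530402F18Rik 2.13-fold (adjusted p = 0.0072, 0.037 and 0.037). Of these, the calls of Gckr, Rnase4, Lyz1, Donson and 6530402F18Rik were each lost without 2 or more arrays (adjusted p up to 0.34, 0.20, 0.55, 0.32 and 0.38, all without wild-type replicate 2), and those of Rdh9 and Zfp469 without wild-type replicate 2 (adjusted p = 0.083 and 0.17). The 9 other genes called higher differed by 0.67 to 0.98 on the log2 scale.

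**Figure D1:**
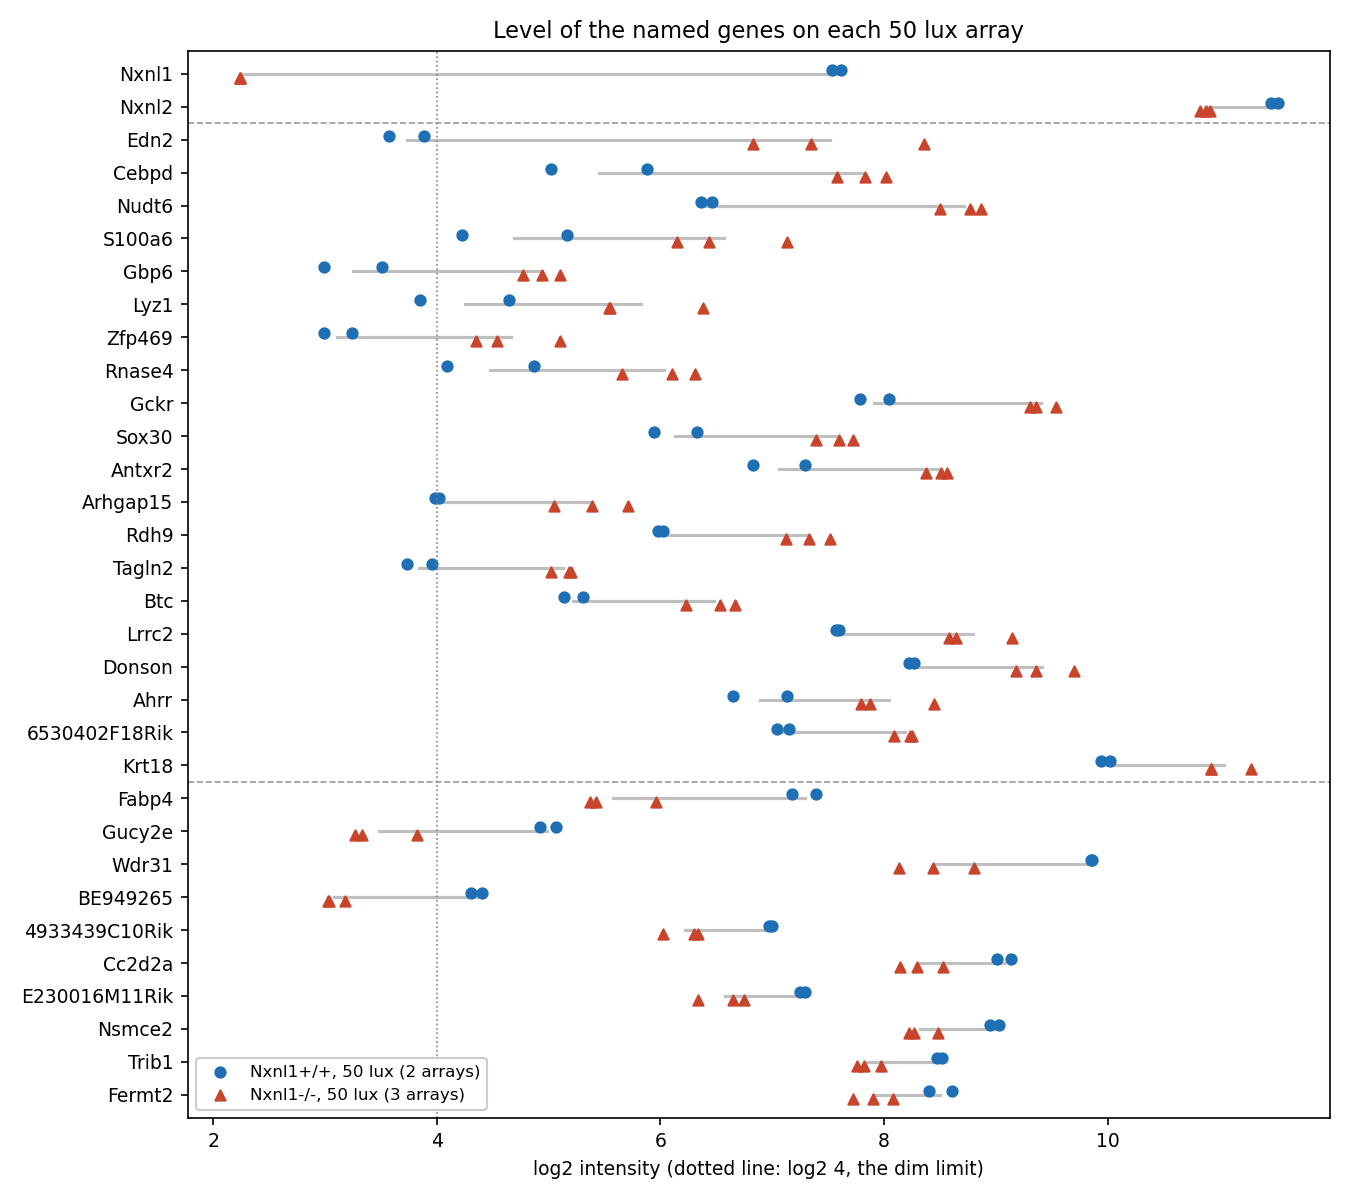
Log2 intensity of Nxnl1, Nxnl2 and the named genes with the largest rises and falls on the 2 wild-type arrays (circles) and the 3 knockout arrays (triangles) at 50 lux. Grey lines join the group means, the dotted line marks log2 4, and in every row shown the groups do not overlap. This was a condition for naming the rises and falls.

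The genes that fell were fewer. Fabp4, a fatty acid carrier known from adipocytes and capillary endothelium, read 7.39 and 7.18 in wild type and 5.42, 5.37 and 5.96 in knockout (3.25-fold lower, log2 -1.70, SE 0.26, adjusted p = 0.019). A second Fabp4 probe set fell as well (log2 -1.86, adjusted p = 0.019), and the third differed by -1.33 (adjusted p = 0.13). Gucy2e, a guanylate cyclase that makes cyclic GMP in photoreceptors, read 4.92 and 5.07 against 3.27, 3.82 and 3.33 and was at least 1.99-fold lower (adjusted p = 0.012). Every knockout array was lower for both genes, as the rule for naming a fall required, and Gucy2e was dim in knockout. Wdr31, a WD repeat gene, read 9.85 and 9.86 against 8.13, 8.44 and 8.80 (2.63-fold lower, adjusted p = 0.027). Its second probe set fell further, from 8.06 and 8.48 to 6.13, 6.31 and 6.30 (log2 -2.03, adjusted p = 0.0057). Without wild-type replicate 2 the adjusted p was 0.15 for Fabp4, 0.18 for Gucy2e, 0.26 for Wdr31 and 0.15 for its second probe set.

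A further 7 named genes fell. Cc2d2a, of the ciliary transition zone, read 9.13 and 9.01 in wild type and 8.14, 8.29 and 8.53 in knockout (1.68-fold lower, adjusted p = 0.041). Nsmce2, a SUMO ligase of the SMC5/6 complex, was 1.59-fold lower, Trib1, a pseudokinase, 1.56-fold and Fermt2, which encodes the integrin activator kindlin 2, 1.52-fold (adjusted p = 0.041, 0.045 and 0.041). Groups did not overlap in any of them, which was a condition for being named. Other Fermt2 probe sets differed by -0.79 (adjusted p = 0.19) and -0.06 (adjusted p = 0.93). The genes BE949265 (at least 1.28-fold, adjusted p = 0.0042), 4933439C10Rik (1.70-fold, adjusted p = 0.041) and E230016M11Rik (1.62-fold, adjusted p = 0.049) completed the list. Each of these 7 calls was lost without wild-type replicate 2, with adjusted p of 0.29 for Cc2d2a, 0.42 for Nsmce2, 0.45 for Trib1, 0.52 for Fermt2, 0.072 for BE949265, 0.33 for 4933439C10Rik and 0.39 for E230016M11Rik.

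Other called falls sat on probe sets that were not the brightest of their gene. Among them were Msi1 (log2 -1.10, dim in knockout, adjusted p = 0.027), Mapk9 (-1.10, adjusted p = 0.037) and Lpin2 (-0.55, adjusted p = 0.041). Esrrb, Rorb, Rpgrip1 and Tmlhe are described here, picked from these falls after their values were seen. A probe set of Esrrb, an orphan nuclear receptor of rods, read 7.32 and 7.83 in wild type and 5.15, 6.18 and 5.68 in knockout (log2 -1.90, adjusted p = 0.037). The brightest Esrrb probe set differed by -0.79 (adjusted p = 0.098). A probe set of Rorb, a nuclear receptor needed for rod development, differed by -1.36 (adjusted p = 0.041) and the brightest by -0.90 (adjusted p = 0.18). Rpgrip1, which anchors the RPGR protein at the connecting cilium, showed -1.81 on 1 probe set (adjusted p = 0.041) and -0.71 on the brightest (adjusted p = 0.23). Tmlhe, the first enzyme of carnitine synthesis, was lower on all 4 of its probe sets, by log2 differences of -1.09 to -1.89, of which 1 was called (adjusted p = 0.044). Direction was thus the same on all tested probe sets of these 4 genes, and the size was not. The called probe set of each of these 4 genes lost its call without wild-type replicate 2 (adjusted p = 0.44, 0.52, 0.48 and 0.33).

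RefSeq promoter windows of the 250 bases before the gene start (GRCm38.p6) are shown for both family genes, for the largest rise, for an interferon gene near Nxnl1 and for the photoreceptor cyclase that fell. Capitals mark matches, on either strand, to 6 motifs: CACGTG (an E-box), TGANTCA (AP-1 type), TTCNNNGAA (STAT type), GAAA and GAAA with any 2 bases between (interferon response type), GGG and CC with any 5 between (NF-kB type) and TAATCC (the core bound by CRX and OTX2).
Nxnl1, chr8:71566650-71566899, minus strand: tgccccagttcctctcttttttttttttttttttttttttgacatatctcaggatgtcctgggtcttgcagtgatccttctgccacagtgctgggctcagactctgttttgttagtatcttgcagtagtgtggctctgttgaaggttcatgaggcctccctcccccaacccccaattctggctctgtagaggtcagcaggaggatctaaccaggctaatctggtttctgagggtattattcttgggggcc
Nxnl2, chr13:51170775-51171024, plus strand: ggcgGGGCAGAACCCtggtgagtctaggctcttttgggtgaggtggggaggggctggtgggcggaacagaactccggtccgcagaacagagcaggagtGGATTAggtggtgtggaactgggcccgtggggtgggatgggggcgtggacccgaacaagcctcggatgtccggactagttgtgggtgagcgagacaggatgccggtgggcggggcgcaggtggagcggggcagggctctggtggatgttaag
Edn2, chr4:120160956-120161205, plus strand: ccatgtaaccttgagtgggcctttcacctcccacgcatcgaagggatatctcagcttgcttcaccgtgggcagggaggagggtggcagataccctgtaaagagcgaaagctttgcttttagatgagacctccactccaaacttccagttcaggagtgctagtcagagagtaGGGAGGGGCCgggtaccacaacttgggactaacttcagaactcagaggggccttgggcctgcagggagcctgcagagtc
Bst2, chr8:71537473-71537722, minus strand: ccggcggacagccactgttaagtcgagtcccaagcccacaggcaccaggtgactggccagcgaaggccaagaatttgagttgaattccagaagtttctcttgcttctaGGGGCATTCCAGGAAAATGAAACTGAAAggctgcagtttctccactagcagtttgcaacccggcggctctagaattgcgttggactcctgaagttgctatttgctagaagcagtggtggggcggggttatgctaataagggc
Gucy2e, chr11:69237023-69237272, minus strand: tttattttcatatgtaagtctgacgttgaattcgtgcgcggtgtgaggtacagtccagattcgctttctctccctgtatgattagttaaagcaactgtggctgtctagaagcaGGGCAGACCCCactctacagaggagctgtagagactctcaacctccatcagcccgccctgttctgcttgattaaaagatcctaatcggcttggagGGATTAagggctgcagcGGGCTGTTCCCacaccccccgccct
The Nxnl1 window held none of the 6, and the Edn2 window 1 match, GGGAGGGGCC. In Bst2 the single run of capitals joins overlapping matches: GGGGCATTCC, then TTCCAGGAA, then GAAAATGAAA and GAAACTGAAA. GGATTA, the reverse strand reading of TAATCC, was in the Nxnl2 and Gucy2e windows. Windows were matched for 26 of the 32 genes called higher, 8 of the 11 called lower besides Nxnl1, and 8879 of the 10916 genes tested. TAATCC was in 0 of 26, in 2 of 8 (25.0%) and in 5.07% of the tested genes. The shares for the 26, the 8 and all tested genes were 76.9%, 62.5% and 61.8% for the NF-kB type, 3.85%, 12.5% and 2.32% for the interferon response type, and 3.85%, 0 and 5.61% for TTCNNNGAA. For TGANTCA they were 7.69%, 12.5% and 3.77%, and for CACGTG 7.69%, 12.5% and 8.62%. With 8 windows, 1 gene is worth 12.5 percentage points. A match describes the letters only.

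The gene lists and their members were chosen with earlier results of these data known. Their shares beside those of all genes are therefore descriptions and not tests. With 0.403% of all genes called in either direction, 0 calls in a list say little about its members. The list of glial reactivity and injury cytokines held Edn2, the largest rise among called genes. Of its 21 tested members 3 rose, Edn2, Cebpd and S100a6, and none fell, against 0.293% of all genes higher. The median difference was 0.44, against 0.12 over all genes. In 13 of 21 the groups did not overlap, all of them higher, against 29.1% of all genes. Serpina3n, an acute-phase protease inhibitor of reactive glia, read 2.94 and 3.51 in wild type and 5.16, 4.35 and 4.98 in knockout (adjusted p = 0.061). The glial filament gene Gfap read 5.09 on both wild-type arrays and 6.56, 6.04 and 5.99 in knockout (log2 1.11, adjusted p = 0.20). Serpina3n and Gfap were thus higher on each knockout array without passing the test. Stat3, the transducer of cytokine signals, differed by 0.70 on its brightest probe set (adjusted p = 0.15) and was called on another, which read 7.63 and 7.37 against 8.18, 8.40 and 8.37 (log2 0.81, adjusted p = 0.037, and 0.44 without wild-type replicate 2). The stress gene Nupr1 was called only on its dimmer probe set, from a wild-type level below log2 4 (at least 1.62-fold, adjusted p = 0.023, and 0.32 without wild-type replicate 2). At the other end, Lcn2 differed by 0.41 (adjusted p = 0.64) and Timp1 lay at background on all 5 arrays. Gfap, Stat3, Nupr1, Lcn2 and Timp1 were named with their values known. Without wild-type replicate 1 the list median was 0.63.

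Interferon response genes had 3 called of 21 tested, all higher, against 0.293% of all genes, with a median of 0.51. This list too was chosen with earlier results known. On the scale of log2(intensity + 16) 0 were called and the median was 0.36, and 13 of the 21 had a wild-type mean below log2 4. Xaf1, an interferon-induced antagonist of the apoptosis inhibitor XIAP, read 5.02 and 5.06 in wild type and 6.12, 6.18 and 5.86 in knockout (2.02-fold, adjusted p = 0.037). Gbp6, a guanylate-binding GTPase, read 2.99 and 3.51 against 4.77, 5.10 and 4.94 (at least 1.92-fold, adjusted p = 0.041), and its other probe set, dim in both groups, differed by 0.13 (adjusted p = 0.83). Bst2, the antiviral protein tetherin, read 2.75 and 2.31 against 3.79, 3.99 and 4.16 (adjusted p = 0.047), too dim in both groups for a fold. Knockout arrays were higher throughout, at low levels. The membrane protein gene Ifitm3 read 5.49 and 5.56 against 7.19, 6.19 and 6.87 (adjusted p = 0.057). Other members did not move that way: Irf7 differed by -0.03 and Stat2 by -0.28. The 3 calls were lost without either wild-type array and without knockout replicate 1 (adjusted p up to 0.32 for Xaf1, 0.20 for Gbp6 and 0.53 for Bst2).

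Complement and antigen presentation genes had 0 called of 12, with a median of 0.68 (0.49 with means below log2 4 set to that floor). In 8 of 12 the groups did not overlap, all higher, against 29.1% of all genes. B2m, or beta-2 microglobulin, which pairs with class I heavy chains, read 8.10 and 7.83 in wild type and 9.36, 9.23 and 8.58 in knockout (log2 1.09, SE 0.22, adjusted p = 0.067). The class I gene H2-K1 read 6.28 and 6.20 against 7.54, 7.41 and 6.86 (adjusted p = 0.13), and it was called on a dimmer probe set, chosen after its value was seen (log2 1.19, adjusted p = 0.041, and 0.48 without wild-type replicate 2). C1qa, a subunit of the first complement component, read 5.47 and 5.08 against 6.53, 6.45 and 5.86 (adjusted p = 0.24). These genes were higher on all knockout arrays and lowest there on replicate 3. Of 8 chemokine, cytokine and adhesion genes 0 were called (median 0.28), and Csf1, a growth factor of microglia, differed by 0.72 (adjusted p = 0.26).

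Of 11 tested markers of microglia and macrophages 0 were called, and 3 had groups that did not overlap, all higher, a share near the 29.1% of all genes. Their median was 0.31, and it was 0.09 without knockout replicate 1, 0.16 and 0.11 without wild-type replicates 1 and 2, and 0 with group means below log2 4 set to that floor. Their summed intensity was 665 and 640 on the wild-type arrays and 1130, 969 and 866 on the knockout arrays, and the brightest of them was Ctss. This cathepsin gene read 8.52 and 8.47 against 9.36, 9.19 and 9.03, the receptor gene Csf1r 6.67 and 6.81 against 7.48, 7.41 and 7.27, and Tyrobp, an adaptor of microglial receptors, 3.84 and 4.03 against 5.43, 4.94 and 4.47. These are the 3 whose groups did not overlap, with adjusted p of 0.31, 0.41 and 0.14. Fcer1g, Mpeg1 and Cd14 were below log2 4 on all 5 arrays, as were the defining markers Tmem119, Trem2, Itgam and Aif1, and Cx3cr1 stayed at 4.19 to 4.22. In a bulk sample fewer cells of a type and less RNA per cell cannot be told apart, nor can more cells and more RNA per cell. The part of these cells in the immune gene values was not tested.

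Of 13 rod phototransduction genes 0 were called, against 0.403% of all genes. The median was -0.02 (-0.06 with array medians set equal and 0 with quantile normalization). In 2 the groups did not overlap with knockout lower and in 2 with knockout higher, against 7.3% and 29.1% of all genes. Rod transducin, Gnat1, read 14.31 and 14.37 in wild type and 14.23, 14.30 and 14.33 in knockout, and Nrl, the factor that sets rod identity, 13.80 and 13.83 against 13.69, 13.89 and 13.93. Both pairs of groups overlapped. Rhodopsin kinase, Grk1, had the largest difference, with 7.55 and 7.75 against 6.92, 7.31 and 6.77 (log2 -0.65, SE 0.22, adjusted p = 0.23). The summed intensity of the 13 was 182000 and 184000 in wild type and 173000, 181000 and 187000 in knockout.

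Cones are the cells RdCVF is known to act on. Of 12 tested cone genes 0 were called, against 0.403% of all genes, and the median was 0.21, against 0.12 over all genes. In 5 the groups did not overlap with knockout higher and in 2 with knockout lower, against 29.1% and 7.3% of all genes. No call in a list of this size says little about its members. The short-wavelength opsin gene Opn1sw read 11.97 and 12.00 in wild type and 12.48, 12.64 and 12.45 in knockout (log2 0.54, SE 0.40, adjusted p = 0.52). For the medium-wavelength opsin gene Opn1mw the values were 9.48 and 9.53 against 9.44, 9.42 and 9.35 (log2 -0.10). Opn1sw was higher and Opn1mw slightly lower on every knockout array, neither past the test. Cone transducin, Gnat2, read 11.09 and 11.10 against 11.24, 11.15 and 11.20. The cone phosphodiesterase gene Pde6c read 8.57 and 8.47 against 7.39, 8.02 and 7.96 (log2 -0.73, SE 0.18, adjusted p = 0.12), and among the fits without 1 of the 5 arrays it was called in that without knockout replicate 2, with adjusted p = 0.048. The cone arrestin gene Arr3 overlapped between groups, at 11.09 and 11.00 against 10.37, 10.74 and 11.15. Gnat1, Nrl, the 2 opsins, Gnat2 and Arr3 were named for their role with values known.

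Of 25 genes shared by rods and cones 1 was called, Gucy2e, against 0.11% of all genes lower. The median was -0.05. In 8 of 25 all knockout arrays lay below both wild-type arrays, against 7.3% of all genes. In 4 they lay above, against 29.1% of all genes. Fscn2, an actin bundler of the outer segment, differed by 0.74 (adjusted p = 0.24), and Cabp4, a calcium sensor of the photoreceptor synapse, by -0.31 (adjusted p = 0.26). Of 16 photoreceptor synapse genes 0 were called (median -0.15). In 6 the groups did not overlap with knockout lower and in 4 with knockout higher, against 7.3% and 29.1% of all genes. Among the 6 was Unc13b, a vesicle priming gene, at -0.66 (adjusted p = 0.14). Unc13b read 12.00 and 11.99 in wild type and 10.98, 11.32 and 11.70 in knockout, lowest on knockout replicate 1.

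**Figure D2:**
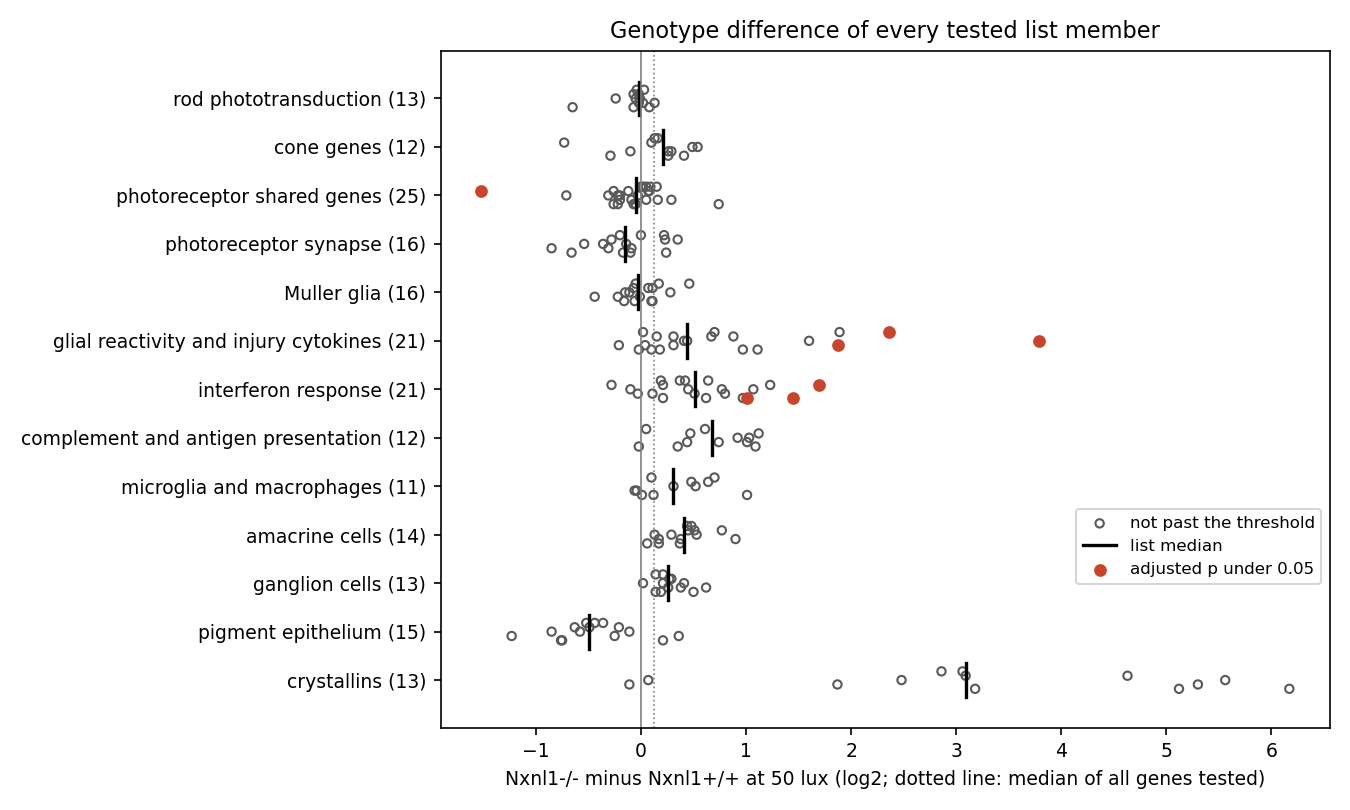
Difference between knockout and wild type at 50 lux (log2) for every tested member of 13 gene lists, with the number tested in brackets. Filled points passed the threshold (3 in the glial list, 3 in the interferon list and 1 shared photoreceptor gene), the short bars are list medians, and the crystallins, with a median of 3.09 and no call, lie farthest from 0.

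Crystallins, the structural proteins of the lens that the retina also makes, differed widely between the groups with no call. Of 13 tested 0 passed limma, while 11 had all knockout arrays above both wild-type arrays, against 29.1% of all genes. The median difference was 3.09. Since 9 of the 13 had a wild-type mean below log2 4, its size depends on how background is read: it was 2.07 with such means set to log2 4 and 1.96 on the scale of log2(intensity + 16). Cryaa read 5.62 and 2.81 in wild type and 11.46 on knockout replicate 1 and no less than 9.70 on the others (adjusted p = 0.31). Crybb2 read 3.95 and 3.18 against 10.09, 8.16 and 8.37 (adjusted p = 0.35), and Cryab, a small heat shock protein, 9.67 and 9.54 against 12.26, 11.07 and 11.11 (adjusted p = 0.28). Knockout replicate 1 was the highest array for all 3. The standard errors were large, 2.62 for Cryaa, since crystallin signal also varied within the groups after bright light. With only the 5 arrays in the fit the adjusted p ran from 0.35 to 0.45 over the 11. Their values did not extend to Crym and Cryz, enzymes that carry the name, at -0.11 and 0.07. Summed crystallin intensity was 2530 and 2240 in wild type and 14800, 6200 and 5390 in knockout. Of 7 lens fibre markers 6 were at or below log2 4 on all 5 arrays, among them Mip and Lim2, and Grifin reached 4.42 on knockout replicate 1 alone. Below that limit, Bfsp1 read 3.93 on knockout replicate 1 and 2.21 to 2.30 on the other arrays. Lim2 and Gja3 were also highest there, at 2.46 and 2.45, while Bfsp2 and Birc7 read 2.21 on all 5 arrays. Summed lens fibre intensity was 61.8 on knockout replicate 1 and 32.7 to 34.8 on the other arrays. The part of lens carry-over in the crystallin values was not tested. The crystallin list median was 2.16 without knockout replicate 1.

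**Figure D3:**
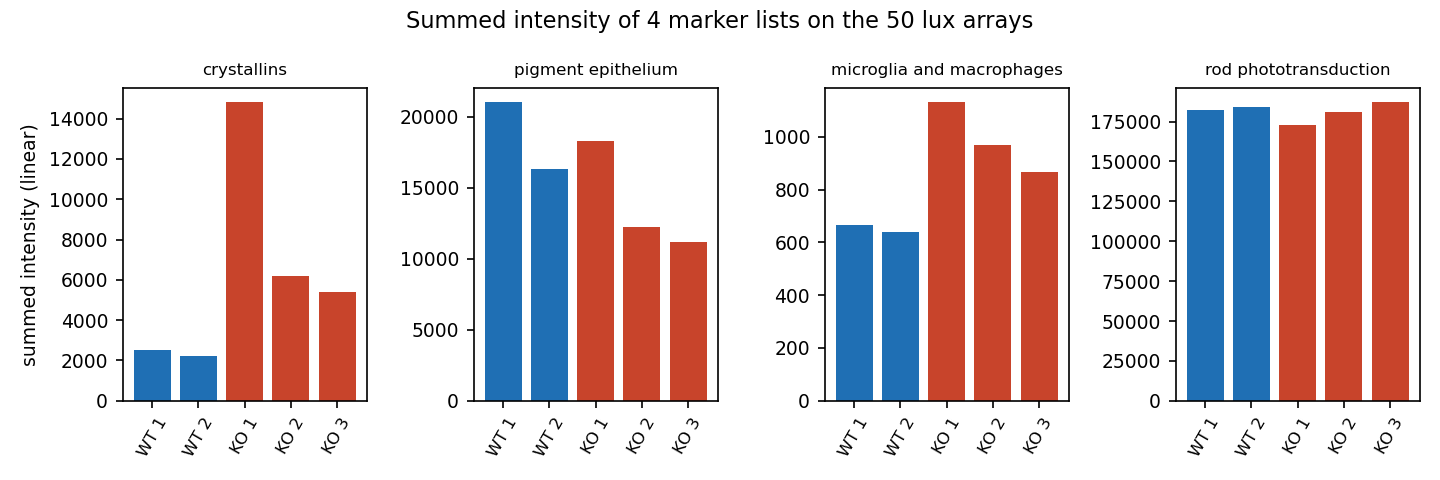
Summed linear intensity of 4 marker lists on each 50 lux array (WT, wild type; KO, knockout; numbers are replicates). The sums of crystallins and of microglial genes, the latter led by Ctss, were higher on all 3 knockout arrays. Pigment epithelium, led by Ttr and Rlbp1, overlapped, and rod genes were level at 173000 to 187000.

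Transcripts of the retinal pigment epithelium, tissue that was dissected away, ran the other way on some arrays. Of 15 tested 0 were called, against 0.403% of all genes, and the median was -0.49, against 0.12 over all genes. The summed intensity was 21000 and 16300 in wild type and 18300, 12200 and 11200 in knockout. Its brightest members were Ttr (log2 12.20 to 13.28 on the 5 arrays) and Rlbp1 (11.92 to 12.56), which is also on the Müller glia list. Rpe65, the isomerase of the visual cycle, read 10.12 and 9.54 against 9.80, 8.87 and 8.54, so the groups overlapped (adjusted p = 0.48). Without knockout replicate 1 the median was -0.86, and without wild-type replicate 1 it was -0.21. The part of tissue carry-over in the genotype calls was not tested. Blood transcripts were at or below log2 4 on all 5 arrays for all 7 genes on the array.

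Markers of inner retinal neurons had no call, and their estimates leaned upward. All 14 amacrine cell genes had an estimate above 0 (median 0.41), as did all 13 ganglion cell genes (median 0.26), against 72.2% of all genes. Penk, which encodes proenkephalin, read 5.27 and 5.45 in wild type and 6.69, 5.75 and 6.33 in knockout (log2 0.90, adjusted p = 0.12). Thy1, a surface protein of ganglion cells, read 9.29 and 8.89 against 10.38, 9.50 and 9.25, and the groups overlapped. Without knockout replicate 1 the amacrine and ganglion cell medians were 0.25 and 0.07, beside 0.08 over all genes in that fit. The median was 0.13 for 13 bipolar cell genes, 0.05 for 7 horizontal cell genes and -0.03 for 16 Müller glia identity genes, beside 0.12 over all genes. Within the Müller list Rlbp1, a retinoid carrier, differed by -0.44 (adjusted p = 0.14) and Clu, a chaperone, by 0.46 (adjusted p = 0.16).

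RdCVF belongs to the thioredoxin family, so redox and energy genes were read as lists. Over all genes 0.403% were called, with a median of 0.12. Of 23 thioredoxin family genes 0 were called (median 0.10), and of 22 oxidative stress defence genes 0 (median 0.18). Nfe2l2, the master factor of that defence, read 8.46 and 8.70 in wild type and 8.35, 8.06 and 8.13 in knockout (log2 -0.40, adjusted p = 0.22), while its inhibitor Keap1 differed by 0.46 (adjusted p = 0.24). Of 21 genes of glycolysis and lactate transport 0 were called (median -0.02). Hexokinase 2, Hk2, the photoreceptor form, read 11.75 and 12.05 against 11.04, 11.19 and 11.42 (log2 -0.68, SE 0.18, adjusted p = 0.14), and the phosphofructokinase gene Pfkp differed by -0.43 (adjusted p = 0.17). Both were lower on every knockout array. None of the remaining lists had a call: 21 respiratory chain genes (median 0.06), 14 of cholesterol synthesis (0.12), 18 circadian genes (0.02), 15 immediate early and AP-1 genes (0.16), 14 apoptosis and p53 targets (0.02), 15 of the unfolded protein response (0.10), 12 heat shock genes (0.18), 15 collagens and laminins (0.16), 11 of endothelium and pericytes (0.29), and 5 of iris, ciliary body and optic nerve (0.16).

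Genes close to the deleted locus were read as a window. Among the 50 tested genes on each side of Nxnl1 on chromosome 8, 2 of 100 were called (2%), both higher, against 0.403% of all genes in either direction. Bst2 lies 2 tested genes away, and Haus8, of the microtubule-branching augmin complex, 12 away. Haus8 read 6.30 and 5.96 in wild type and 7.28, 7.03 and 6.93 in knockout (1.93-fold, adjusted p = 0.023, or 0.33 once wild-type replicate 2 was left out). The genotype difference of Haus8 was -0.21 at 2500 lux and 0.10 at 5000 lux, and that of Bst2 0.49 and -0.51. Over the whole of chromosome 8, 4 of 609 genes were called (0.657%). This count, unlike that of the window, includes Nxnl1, which was lower. The others were Bst2, Haus8 and Zfp469, all higher.

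The 50 lux difference was then set beside the genotype differences after bright light, which share no array with it. At 2500 lux 22 probe sets were called between genotypes (0.0943%) and at 5000 lux 1, Nxnl1 (0.00429%). Of the 48 probe sets called higher at 50 lux, 33 had the same sign at 2500 lux and 14 at 5000 lux, where 52.1% and 48.3% of all tested probe sets had the sign they had at 50 lux. None was called at the higher doses. Their median difference went from 1.21 at 50 lux to 0.06 and -0.10. For the 27 called lower besides Nxnl1 the counts were 19 and 10, and the median went from -1.10 to -0.10 and 0.02. The 50 lux medians come from the arrays that chose these probe sets. Part of the drop on other arrays therefore follows from the choice.

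**Figure D4:**
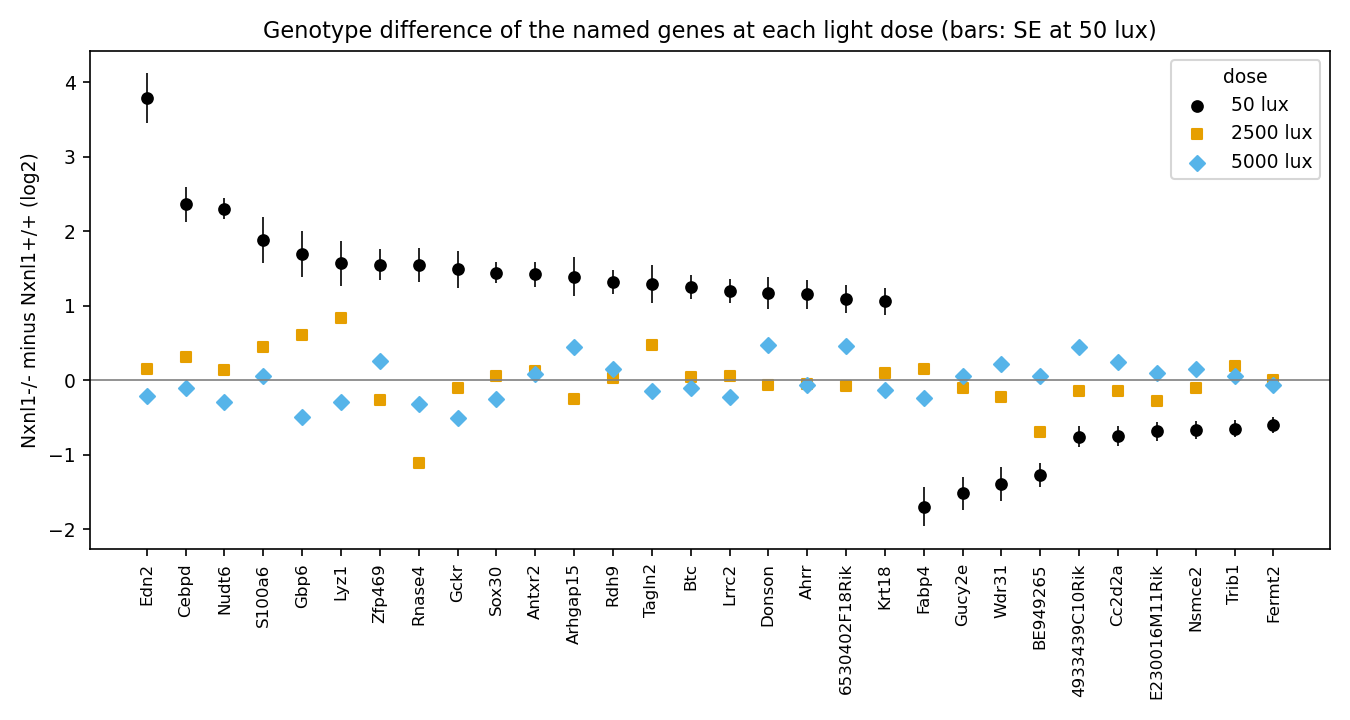
Genotype difference (log2, knockout minus wild type) of the 30 named genes with the largest rises and falls, at 50 lux (circles with SE), 2500 lux (squares) and 5000 lux (diamonds). The points at 50 lux come from the arrays that chose these genes; those at the higher doses run from -1.11 (Rnase4) to 0.84 (Lyz1), both at 2500 lux.

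The change of the genotype difference was tested directly, as the difference at 50 lux minus the mean of those at 2500 and 5000 lux. In limma 15 probe sets passed (0.0643%), and 9 genes did by their brightest probe set (0.0824%). Edn2 differed by 3.82 (SE 0.40, adjusted p = 0.002), a size that is not exact since its wild-type level at 50 lux was at background. The value was 2.38 for Nudt6 (SE 0.17, adjusted p = 8.7e-05), 2.25 for Cebpd (SE 0.28, adjusted p = 0.0081) and 1.54 for Sox30 (SE 0.16, adjusted p = 0.002). The other 5 were Rnase4, Antxr2, Lrrc2, Btc and Rdh9. For Nxnl1 itself this test gave -1.59 (SE 0.37, adjusted p = 0.21), and for Nxnl2 -0.65 (SE 0.14, adjusted p = 0.18). The count was 4 to 43 when 1 of the 5 arrays was left out.

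The levels behind these tests fell into 2 patterns. Edn2 had a mean of 3.73 in wild type and 7.52 in knockout at 50 lux, and after bright light 10.15 and 10.30 at 2500 lux and 10.37 and 10.15 at 5000 lux, wild type first. Cebpd went through 5.45 and 7.81 at 50 lux to 11.70 and 12.00 at 2500 lux and 11.79 and 11.69 at 5000 lux, and Nudt6 through 6.41 and 8.71 to 10.85, 10.99, 11.10 and 10.81. Knockout retina at 50 lux lay above wild type at 50 lux and below every bright-light group for these 3 genes. Rdh9 differed from that: its knockout mean was 7.32 at 50 lux, its wild-type arrays there read 5.98 and 6.02, and after bright light the means were 5.84, 5.87, 5.97 and 6.12, so the knockout group at 50 lux was the only high one. Fabp4 was its mirror, with 7.29 and 5.58 at 50 lux and 6.94, 7.09, 7.23 and 6.99 after bright light, although its test of the change missed the threshold (log2 -1.66, SE 0.31, adjusted p = 0.11). The wild-type and knockout arrays at 50 lux also serve as the reference of each light response, so those responses are not independent of the differences given here.

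**Figure D5:**
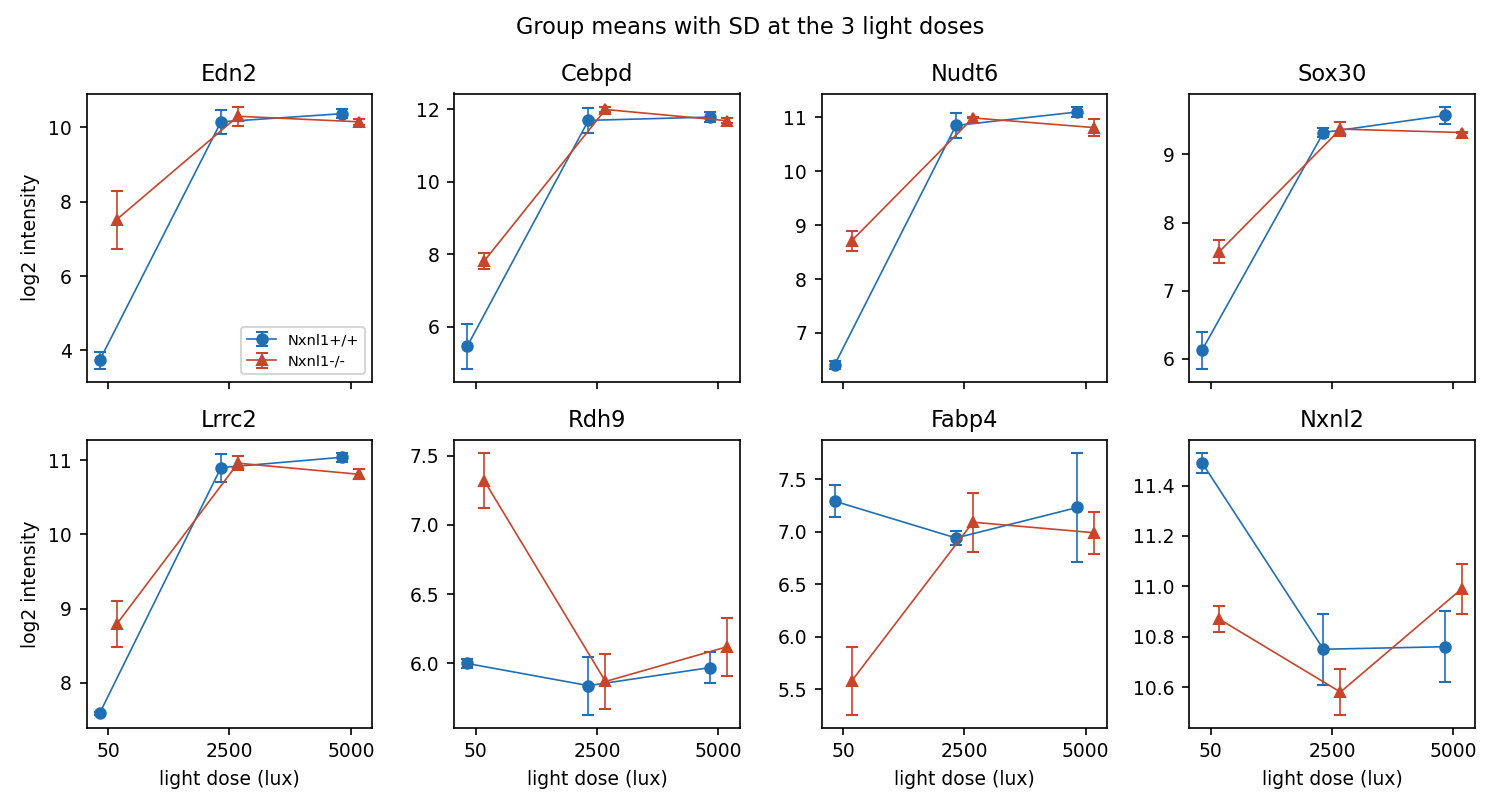
Mean log2 intensity with SD (n = 2 or 3 arrays) of 8 genes in wild type (circles) and knockout (triangles) at 50, 2500 and 5000 lux; the 3 doses are evenly spaced on the axis and each panel has its own scale. Edn2, Cebpd, Nudt6, Sox30 and Lrrc2 differ between genotypes at 50 lux and reach similar levels after bright light, Rdh9 is high and Fabp4 low in knockout retina at 50 lux, and Nxnl2 is highest in wild type at 50 lux.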

How the data were processed

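The deposited values are intensities per probe set on a linear scale, made by the authors with GCRMA, per the submitters' processing notes (no settings are given there). The file holds 45037 probe sets, and 34945 have 1 gene symbol in the platform annotation, 932 several and 9160 none; of the 34945, 34741 matched RefSeq. Values were used as log2 with no further normalization. Probe sets above log2 4 (intensity 16) on at least 2 of the 16 arrays were kept, which left 23320. They were fitted in limma 3.58.1 (R 4.3.3) with lmFit and eBayes, with 10 residual and 3.18 prior degrees of freedom, and p-values were adjusted by Benjamini and Hochberg over all probe sets tested. The script was tested on simulated data. A gene was read by its brightest tested probe set. A fold against a group whose arrays all lay below log2 4 (for the second Tagln2 probe set, whose mean did) was computed against that floor and is given as at least that size. Array precision is limited by 2 and 3 arrays per group.

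Named genes were Nxnl1, Nxnl2, up to 20 rises and 20 falls by size among called genes whose groups did not overlap and with a mean above log2 4, the 4 members of each of 33 lists with the smallest p, and called genes among the 50 on each side of Nxnl1; exceptions are named in the text. The members and lists were chosen with earlier results of these data known. Alternatives were other filters, scalings, an offset, other eBayes settings, array weights, a replicate block, a sex covariate, the mean of a gene's probe sets, only the 5 arrays, and leaving out each array. Leaving out wild-type 5000 lux replicate 2 was chosen after seeing the data.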

Additional observations from a re-analysis of the deposited data

Results flagged for a closer look

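For 9 genes the genotype difference at 50 lux differed from the mean of the differences at 2500 and 5000 lux, by a limma contrast over all 16 arrays. The value was 3.82 on the log2 scale for Edn2 (adjusted p = 0.002; not an exact size, since wild type at 50 lux was at background), 2.38 for Nudt6 (adjusted p = 8.7e-05), 2.26 for Rnase4 (adjusted p = 0.0067), 2.25 for Cebpd (adjusted p = 0.0081) and 1.54 for Sox30 (adjusted p = 0.002). It was 1.32 for Antxr2 (adjusted p = 0.032), 1.29 for Lrrc2 (adjusted p = 0.032), 1.28 for Btc (adjusted p = 0.032) and 1.23 for Rdh9 (adjusted p = 0.047). In each of the 9 the knockout was higher than wild type at 50 lux. Rnase4 stands apart among them, because its difference was negative at both higher doses, -1.11 at 2500 lux and -0.32 at 5000 lux.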

How the results depend on the processing

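Of the 35 named genes called, none changed direction under any alternative, and Nxnl1 alone stayed called under every planned one. Against 76 probe sets called at 50 lux there were 163 without a filter on dim probe sets, 248 with array weights, 37 with the sex covariate, 1 with only the 5 arrays and 46 without wild-type 5000 lux replicate 2, and 9 to 363 without 1 of the 5 arrays. For the 15 of the dose contrast there were 59 with no filter, 7 with quantile normalization, 9 with log2(intensity + 16), 26 with array weights, 7 with the sex covariate and 4 to 43 without 1 array. The 22 at 2500 lux became 5 above log2 6, 39 with array weights, 18 without wild-type 5000 lux replicate 2, and 14 to 16 without 1 of the 5 arrays. At 5000 lux the count was 1 in each. Fewer probe sets or arrays enter some of these fits; beyond that the cause was not tested. Slc2a1, at 0.04, came to 0 with array weights, -0.01 as the mean of its probe sets, and -0.05 to 0.12 without 1 array. Same-numbered arrays at 50 lux had correlated deviations of 0.35 and 0.46, from 2 pairs. With 2 wild-type arrays the deviations of one mirror those of the other, so both values rest on the same wild-type difference. They do not settle a pairing. With the replicate block 100 probe sets were called, 62 of them among the 76. Low signal limits dim genes, which have only a bound below log2 4.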
